A study of Homo sapiens with 36 samples.

Results

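The small nucleolar RNA (snoRNA) host genes examined here were the 33 genes of the count table whose symbol was SNHG followed by a number, or GAS5, ZFAS1, DANCR, EPB41L4A-AS1 or TAF1D, out of 61544 genes in all. Of these, 31 had enough reads to be tested. SNHG18 reached at most 3 counts in any library and SNHG27 at most 2, and neither was taken further. The samples were polyadenylated RNA of MIA PaCa-2, a line from a human pancreatic carcinoma, in which doxycycline (dox) turns on Cas9. One line carried a guide against PELO, another a guide against HBS1L, and control cells a non-targeting guide. Each line was kept with 2 µg/mL dox or without it, and taken at 48 h or 96 h, which gives 12 groups of 3 libraries. All groups, controls included, share the inducible Cas9, a guide and a background that the submitters describe as having a destabilised SKI complex. Whether each line was 1 clone or a pool, and whether the 3 libraries of a group came from separate cultures, is not given in the sources used here, so the p-values describe the spread between libraries, which may be technical.

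snoRNAs guide chemical changes on other RNAs: box C/D snoRNAs direct methylation of ribosomal RNA, box H/ACA snoRNAs direct its pseudouridylation, and the related small Cajal body RNAs (scaRNAs) act on spliceosomal RNAs. Most human snoRNAs are cut from introns. In a host gene the spliced exons are left over, and for GAS5, ZFAS1, SNHG1 and several others this spliced RNA is known to carry short reading frames, to be engaged by ribosomes and to be degraded by nonsense-mediated decay (NMD). Many host genes also start with a pyrimidine tract, the 5' terminal oligopyrimidine start shared with ribosomal protein genes. PELO and HBS1L together split ribosomes that have stalled on an RNA.

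The starts of 10 host genes are shown: those with a promoter entry that changed by at least 1 on the log2 scale in PELO-guide cells beyond control cells at both times, with an adjusted p under 0.05. Each line gives 30 bases before and 40 bases from the annotated start, 5' to 3', from RefSeq on GRCh38.p14. Where a C followed by at least 4 pyrimidines lies within 10 bases of the annotated start, capitals mark the whole stretch of pyrimidines that holds it. The windows lie at chr20:49278612-49278681 (+ strand) for ZFAS1, chr6:31834886-31834955 (+ strand) for SNHG32, chr11:93741456-93741525 (- strand) for TAF1D, chr1:28581834-28581903 (- strand) for SNHG12, chr16:2155319-2155388 (- strand) for SNHG19, chr9:136728145-136728214 (- strand) for SNHG7, chr20:38435289-38435358 (- strand) for SNHG17, chr4:118278732-118278801 (+ strand) for SNHG8, chr1:173869006-173869075 (- strand) for GAS5 and chr11:62855846-62855915 (- strand) for SNHG1.
ZFAS1: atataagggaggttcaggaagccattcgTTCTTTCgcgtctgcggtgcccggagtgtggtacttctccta
SNHG32: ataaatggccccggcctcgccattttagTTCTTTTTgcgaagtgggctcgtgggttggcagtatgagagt
TAF1D: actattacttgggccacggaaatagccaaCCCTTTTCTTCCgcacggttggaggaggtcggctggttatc
SNHG12: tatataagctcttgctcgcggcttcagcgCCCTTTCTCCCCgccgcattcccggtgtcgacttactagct
SNHG19: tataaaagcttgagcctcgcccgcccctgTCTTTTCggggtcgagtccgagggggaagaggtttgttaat
SNHG7: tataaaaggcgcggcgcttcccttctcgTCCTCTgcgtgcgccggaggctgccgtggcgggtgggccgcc
SNHG17: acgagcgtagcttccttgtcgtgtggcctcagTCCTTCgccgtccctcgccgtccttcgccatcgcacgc
SNHG8: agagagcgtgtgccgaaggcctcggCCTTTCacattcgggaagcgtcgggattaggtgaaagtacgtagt
GAS5: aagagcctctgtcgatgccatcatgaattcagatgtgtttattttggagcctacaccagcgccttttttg
SNHG1: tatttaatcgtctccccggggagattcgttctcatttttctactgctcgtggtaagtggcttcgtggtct
In ZFAS1, SNHG32, TAF1D, SNHG12 and SNHG19 a C followed by at least 4 pyrimidines lies exactly at the annotated start, inside a stretch of pyrimidines that opens 2 bases earlier in ZFAS1 and SNHG32 and 1 base earlier in TAF1D, SNHG12 and SNHG19. The stretch opens 2 bases after the annotated start in SNHG17, 2 bases before it in SNHG7 and 5 bases before it in SNHG8, and GAS5 and SNHG1 have no such C within 10 bases. Of the 33 host genes, 29 had a promoter entry. A C at the annotated start followed by at least 4 pyrimidines was present in 8 of the 29 (27.6%), against 4.07% of all 35116 promoters in the table; besides the 5 shown these were SNHG4, SNHG5 and SNHG18. Within 10 bases of that start such a C was present in 18 of 29 (62.1%), against 33.5% of all promoters. SNHG6, SNHG9, SNHG15 and SNHG25 had no entry. RefSeq starts can differ from the GENCODE gene ends given with each gene, and neither is a measured start in these cells.

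Libraries held 45356024 to 107436235 counts, and the deepest was the second PELO library with dox at 96 h. PELO messenger RNA averaged 20.7 ± 0.404 CPM with dox and 25.2 ± 1.33 CPM without in PELO-guide cells at 48 h, and 28.3 ± 1.46 against 29.1 ± 1.99 CPM at 96 h. HBS1L messenger RNA averaged 33.8 ± 0.332 CPM with dox and 111 ± 1.98 CPM without in HBS1L-guide cells at 96 h. Of 5 epithelial markers the 3 keratins were present, but EPCAM and CDH1 had at most 3 counts in every library, as had the leukocyte genes PTPRC and CD3E, the endothelial genes PECAM1 and KDR and the fibroblast genes DCN and LUM. The marker sums moved with dox in PELO-guide cells. At 96 h the 5 fibroblast markers, nearly all COL1A2, summed to 29.5 to 33.2 CPM with dox and 211 to 232 CPM without in PELO-guide cells, against 181 to 206 and 218 to 225 CPM in control cells. The 4 endothelial markers, nearly all CDH5, summed to 0.832 to 1.31 CPM with dox and 14.8 to 17.5 CPM without in PELO-guide cells, and to 14.8 to 20.3 and 16.4 to 17.3 CPM in control cells. CD68, a lysosomal membrane protein, is abundant in macrophages and also present in other cells. The 5 leukocyte markers, nearly all CD68, summed to 41.1 to 43.6 CPM with dox and 20.6 to 20.9 CPM without in PELO-guide cells, and to 23.5 to 26.1 and 21.2 to 23.4 CPM in control cells. The keratins were lower too in PELO-guide cells with dox at 96 h, where the epithelial sum was 1516 to 1858 CPM with dox and 3255 to 3609 CPM without, against 3659 to 4093 and 3466 to 3592 CPM in control cells. All PELO libraries with dox thus lay below every other library of 96 h in the fibroblast, endothelial and epithelial sums and above every other in the leukocyte sum. In HBS1L-guide cells at 96 h the fibroblast sum was 146 to 169 CPM with dox and 189 to 198 CPM without, and the endothelial sum 8.63 to 10.1 CPM and 16.1 to 22.6 CPM. At 48 h the fibroblast sum was 87.4 to 96.3 CPM with dox and 141 to 148 CPM without in PELO-guide cells, and 232 to 249 and 154 to 164 CPM in control cells. The part of these markers in the host gene results was not tested. Levels are in CPM, counts scaled to a library of common size with TMM factors, and group values are mean ± SD with n = 3. In whole-culture RNA, fewer cells of a kind and less RNA per cell cannot be told apart.

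The host genes spanned a wide range of levels. Per kilobase of exon, in control cells without dox at 48 h, SNHG29 was highest at 202 ± 6.77 CPM per kilobase, followed by GAS5 at 71.8 ± 1.75. SNHG32 (61.5 ± 3.26), SNHG19 (61.5 ± 7.31) and SNHG5 (60.6 ± 6.05 CPM per kilobase) came next and did not differ beyond their spread. SNHG8 lay at 53.5 ± 3.47 CPM per kilobase, and SNHG28 was the lowest tested gene at 0.0934. SNHG29, host of the SNORD49 pair and SNORD65, made up 32.4% of the summed host gene CPM in that group, and GAS5 a further 11.1%.

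The summed level of all members was higher with dox than without in PELO-guide cells at both times and in HBS1L-guide cells at 96 h, and lower or within the spread in the other 3 pairs of groups. This sum is a description with no test. At 48 h it was 3871 ± 290.3 CPM with dox and 2286 ± 145 CPM without in PELO-guide cells, 2339 ± 71.2 and 2583 ± 53.1 CPM in HBS1L-guide cells, and 2030.2 ± 71.1 and 2343 ± 99.8 CPM in control cells. At 96 h it was 4274 ± 238 CPM with dox and 2011 ± 19.1 CPM without in PELO-guide cells, 2463 ± 61.7 and 1733 ± 53.1 CPM in HBS1L-guide cells, and 1703 ± 25.2 and 1698 ± 52.5 CPM in control cells. GAS5 made up 19.4% of the sum with dox and 9.32% without in PELO-guide cells at 96 h. ZFAS1 made up 8.55% with dox.

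Many host genes rose in PELO-guide cells beyond control cells, led by ZFAS1, SNHG17, SNHG12, SNHG8, SNHG1 and SNHG32 at 48 h and by SNHG12, ZFAS1, GAS5, SNHG17, SNHG1 and SNHG9 at 96 h. This comparison takes the change with dox in PELO-guide cells minus the change with dox in control cells, as a log2 difference, so that 1 is a 2-fold change. At 48 h, 16 of 31 members were higher and 7 lower at an adjusted p under 0.05, where 22.9% of all genes tested were higher and 24.9% lower. At 96 h, 17 were higher and 7 lower, where 28.7% of all genes were higher and 26.0% lower. The members' median log2 change was 0.55 at 48 h and 0.79 at 96 h, against -0.04 and 0.02 over all genes. Adjusted p-values are from edgeR's quasi-likelihood test with Benjamini-Hochberg adjustment over 20767 genes, and a log2 change is given ± SE. Of the 16 and 17 genes that rose, 15 rose at both times (93.8% and 88.2%). Of the 7 that fell at each time, DANCR, SNHG10, SNHG14, SNHG19 and SNHG3 fell at both. No member was higher at one time and lower at the other in this comparison. The shares of all genes called alike at both times are not given here, so this overlap has no background beside it.

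**Figure D1:**
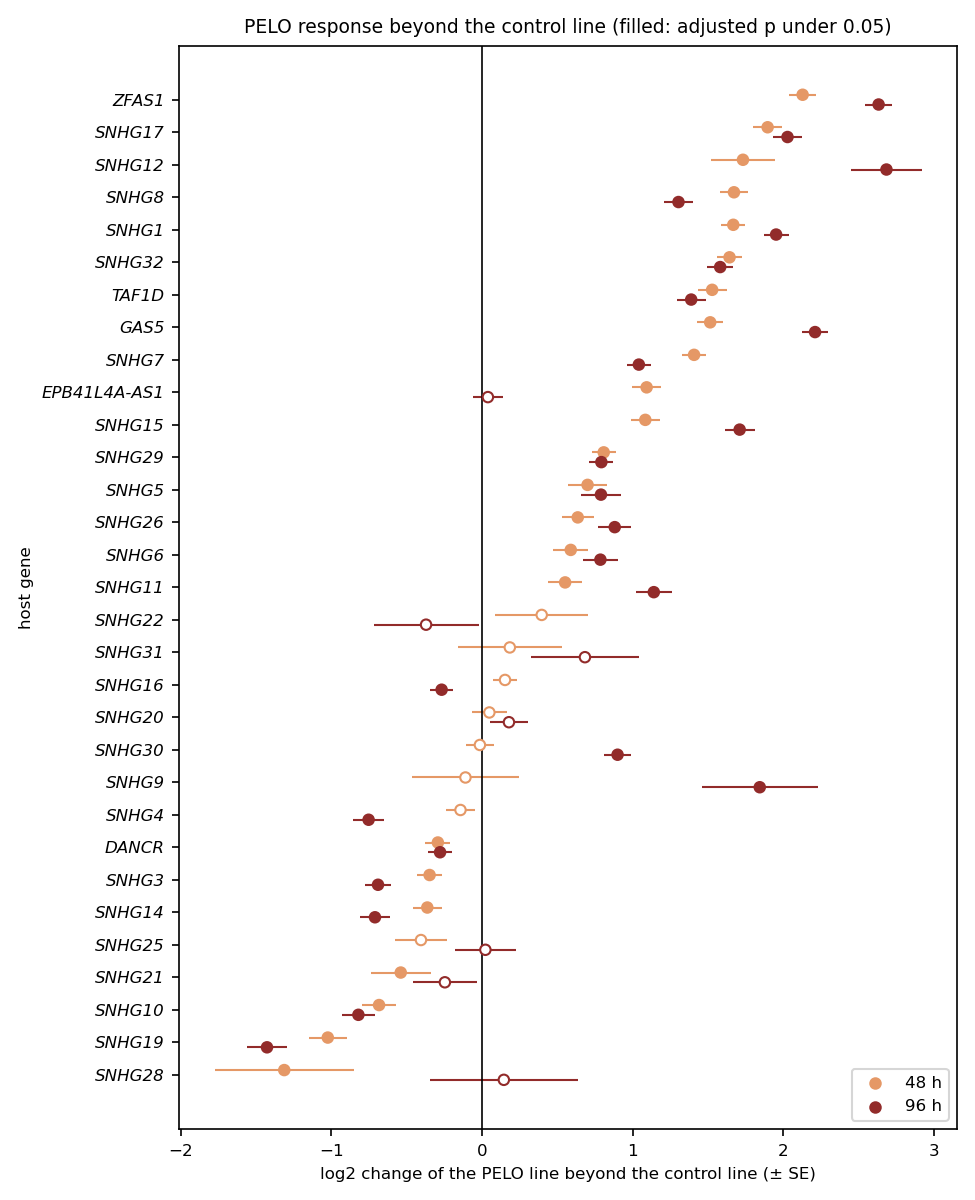
Log2 change of each host gene in PELO-guide cells beyond control cells (x axis, ± SE, dox over no dox) at 48 h (light) and 96 h (dark), 31 genes down the page; filled points have an adjusted p under 0.05. ZFAS1 is highest at 48 h with 2.13, SNHG12 at 96 h with 2.69, and SNHG19 has the lowest value at 96 h with -1.43.

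ZFAS1, which carries 3 box C/D snoRNAs of the SNORD12 group (chromosome 20, 49278178 to 49295738, + strand, GENCODE 29 on GRCh38, ENSG00000177410.13), changed most of the 5 marker genes. In PELO-guide cells at 48 h it had 180.1, 203 and 208 CPM with dox, against 55.2, 52.7 and 63.0 CPM without. In control cells it stood at 48.8, 49.3 and 51.0 CPM with dox and 63.6, 62.1 and 63.3 CPM without. Every PELO library with dox was above every other library of that time, while in control cells the dox libraries were the lower ones. At 96 h PELO-guide cells had 375, 358 and 364 CPM with dox and 55.4, 57.5 and 56.4 CPM without. At 96 h control cells had 42.0, 43.3 and 45.4 CPM with dox and 39.7, 39.9 and 45.7 CPM without, and those groups overlapped. The change beyond control cells was 2.13 ± 0.09 at 48 h (edgeR adjusted p = 1.52e-20) and 2.63 ± 0.09 at 96 h (4.59e-23). Whether the counting used strand, which bears on host genes that overlap others, is not given in the sources used here.

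GAS5, the growth arrest host gene with 10 box C/D snoRNAs and 1 box H/ACA snoRNA in RefSeq (chromosome 1, 173863900 to 173868882, - strand, ENSG00000234741.9), was the most abundant of the strongly changed members in CPM. In PELO-guide cells at 48 h it had 545, 652 and 652 CPM with dox, against 257, 243 and 276 CPM without. The control values were 208, 219 and 226 CPM with dox, against 267, 254 and 260.2 CPM without. The PELO groups were separated by a wide gap, and the control groups were separated by a narrow one in the other direction. At 96 h PELO-guide cells had 883, 782 and 822 CPM with dox and 193, 191 and 179 CPM without, and control cells 132, 139.6 and 120.5 CPM with dox and 139, 132 and 141 CPM without. The control groups overlapped at that time. The change beyond control cells was 1.52 ± 0.09 at 48 h (edgeR adjusted p = 8.52e-17) and 2.21 ± 0.09 at 96 h (2.19e-21).

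SNHG1, first described as the host of SNORD22 and carrying 8 box C/D snoRNAs (chromosome 11, 62851988 to 62855914, - strand, ENSG00000255717.8), had 198, 221 and 213 CPM with dox in PELO-guide cells at 48 h, against 77.2, 75.4 and 79.3 CPM without. Cells with the control guide had 66.2, 70.2 and 75.0 CPM with dox and 83.2, 81.0 and 82.6 CPM without. At 96 h PELO-guide cells had 169, 167 and 183 CPM with dox and 49.3, 51.0 and 43.8 CPM without. All PELO libraries with dox exceeded all other libraries of their time. At 96 h control cells had 46.2, 47.1 and 42.4 CPM with dox and 51.1, 49.8 and 45.2 CPM without, with overlap. The change beyond control cells was 1.67 ± 0.08 at 48 h and 1.95 ± 0.08 at 96 h (edgeR adjusted p = 4.99e-19 and 8.43e-21).

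SNHG32, host of the box C/D snoRNAs SNORD48 and SNORD52 (chromosome 6, 31834608 to 31839766, + strand, ENSG00000204387.14), had 229.6, 251 and 255 CPM with dox in PELO-guide cells at 48 h, against 97.9, 94.8 and 109.8 CPM without. Control cells had 79.3, 86.4 and 92.6 CPM with dox and 118, 107 and 107 CPM without. The PELO groups and the control groups were each separated, in opposite directions. At 96 h PELO-guide cells had 276, 249 and 245 CPM with dox and 89.3, 89.9 and 91.5 CPM without, and control cells 67.7, 65.7 and 68.6 CPM with dox and 68.8, 76.4 and 67.9 CPM without. The rise beyond control cells was of much the same size at both times, 1.64 ± 0.08 and 1.58 ± 0.09 (edgeR adjusted p = 2.85e-18 and 6.24e-18). Exons of a second annotated gene on the same strand overlap 23.2% of the SNHG32 exons.

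**Figure D2:**
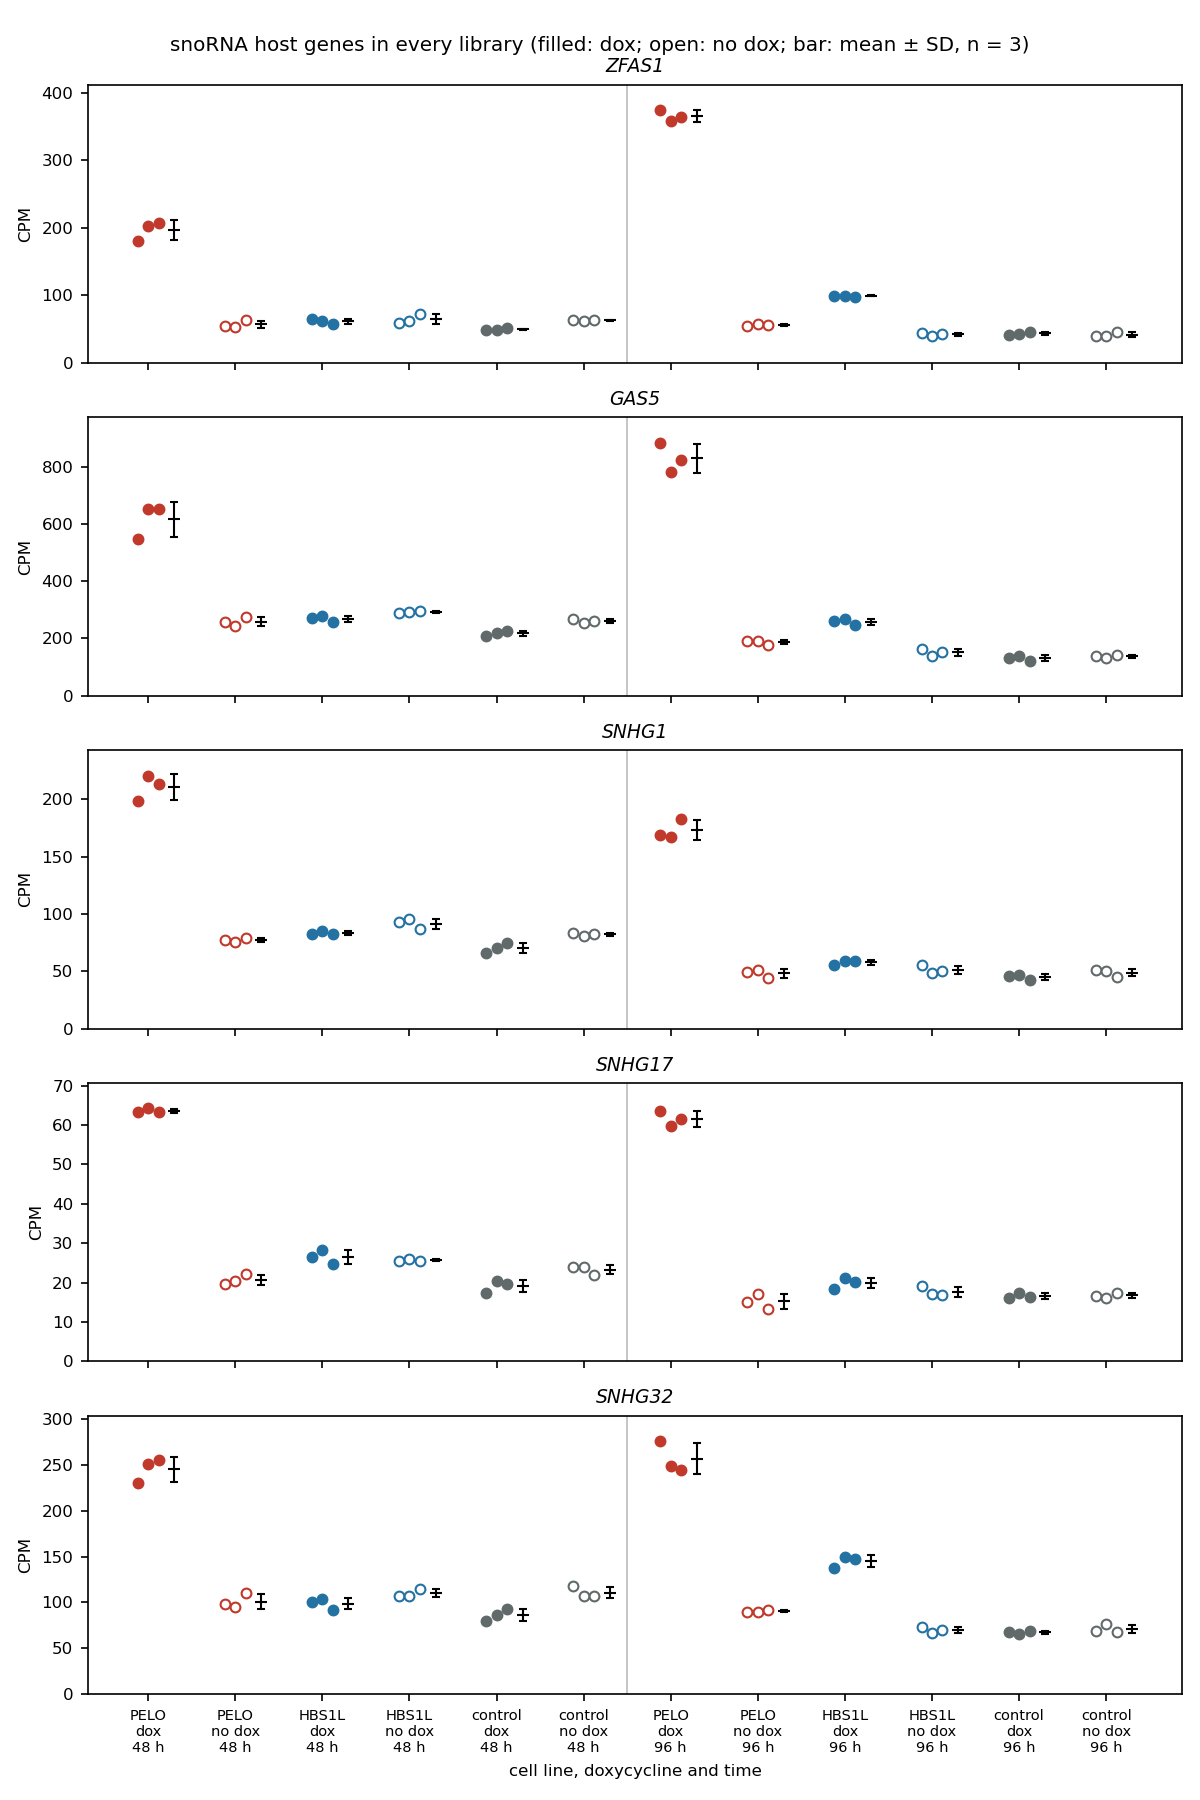
CPM (y axis, from 0) of ZFAS1, GAS5, SNHG1, SNHG17 and SNHG32 in each of the 36 libraries, by line, dox and time (x axis); points are libraries, filled with dox and open without, and bars show mean ± SD (n = 3). PELO libraries with dox are the highest of their time in all 5 panels, with ZFAS1 at 358 to 375 CPM at 96 h, and the HBS1L dox libraries at 96 h stand above their no-dox libraries for ZFAS1, GAS5, SNHG1 and SNHG32.

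Among hosts that carry box H/ACA snoRNAs only, SNHG17, SNHG8, SNHG7 and SNHG15 at least doubled beyond control cells at both times. SNHG17, host of the SNORA71 group (chromosome 20, 38420588 to 38435353, - strand, ENSG00000196756.14), had 63.2, 64.2 and 63.4 CPM with dox in PELO-guide cells at 48 h, against 19.7, 20.5 and 22.2 CPM without. At 96 h it had 63.7, 59.6 and 61.5 CPM with dox and 15.1, 17.2 and 13.3 CPM without. In control cells it stood at 17.4, 20.4 and 19.6 CPM with dox and 24.0, 24.0 and 21.9 CPM without at 48 h, and 16.1, 17.3 and 16.3 against 16.7, 16.2 and 17.4 CPM at 96 h. The PELO groups lay far apart at both times, and the control groups overlapped at 96 h. Its changes beyond control cells were 1.90 ± 0.10 and 2.03 ± 0.10 (edgeR adjusted p = 1.64e-18 and 3.33e-19).

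SNHG8, host of SNORA24, had 79.1, 92.3 and 96.8 CPM with dox in PELO-guide cells at 48 h, against 41.0, 40.3 and 47.6 CPM without. The control values were 30.8, 31.4 and 34.3 CPM with dox and 52.9, 48.5 and 46.7 CPM without. Its log2 change beyond control cells of 1.67 ± 0.10 was made up of 1.06 in PELO-guide cells and -0.62 in control cells. At 96 h it had 72.9, 67.7 and 68.8 CPM with dox and 31.0, 32.1 and 31.4 CPM without in PELO-guide cells, against 25.9, 27.8 and 27.2 CPM with dox and 29.4, 31.7 and 29.2 CPM without in control cells. The PELO groups did not overlap, and the change was 1.31 ± 0.10 (edgeR adjusted p = 4.31e-14). SNHG7, host of the SNORA17 pair, followed the same course, with 132, 144 and 145 CPM with dox and 78.1, 76.1 and 88.8 CPM without in PELO-guide cells, and 51.6, 55.9 and 56.9 CPM with dox and 87.9, 85.3 and 79.0 CPM without in control cells at 48 h. The 96 h values were 123, 112 and 121 CPM with dox and 62.7, 64.7 and 58.7 CPM without in PELO-guide cells, and 48.4, 50.2 and 51.9 CPM with dox and 55.4, 55.7 and 51.2 CPM without in control cells. Its changes beyond control cells were 1.41 ± 0.08 and 1.04 ± 0.08. Exons of DIPK1B on the other strand overlap 25.2% of those of SNHG7.

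SNHG15, host of SNORA9 and known as a short-lived RNA, had 47.4, 53.5 and 52.9 CPM with dox in PELO-guide cells at 48 h, against 27.0, 25.6 and 27.7 CPM without, and 44.8, 43.6 and 47.3 CPM with dox against 15.8, 15.8 and 12.8 CPM without at 96 h. Cells with the control guide had 25.05, 25.7 and 25.7 CPM with dox and 28.1, 28.8 and 27.8 CPM without at 48 h, and 16.8, 15.6 and 14.0 against 18.1, 15.9 and 15.7 CPM at 96 h. The level with dox in PELO-guide cells was close at both times, while the level without was lower at 96 h. The changes beyond control cells were 1.08 ± 0.09 and 1.71 ± 0.10 (edgeR adjusted p = 4.87e-12 and 4.65e-17).

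SNHG12 and TAF1D carry snoRNAs of both kinds. SNHG12 (chromosome 1, 28578538 to 28583132, - strand, ENSG00000197989.15) had 45.2, 49.7 and 47.9 CPM with dox in PELO-guide cells at 48 h, against 14.7, 12.5 and 13.6 CPM without, and 28.2, 28.0 and 29.5 CPM with dox against 7.24, 8.13 and 4.03 CPM without at 96 h. Control cells had 14.6, 15.4 and 17.1 CPM with dox and 14.98, 15.8 and 13.9 CPM without at 48 h, and 7.95, 8.75 and 5.98 against 12.4, 12.3 and 8.43 CPM at 96 h. In PELO-guide cells without dox at 96 h the third library was well below the others, as it was in both control groups. The SNHG12 change of 2.69 ± 0.23 at 96 h (edgeR adjusted p = 1.48e-10) was its largest. Of this change, 2.14 was the rise with dox in PELO-guide cells, and the rest was a fall with dox in control cells. TAF1D, which also encodes a subunit of the SL1 factor of RNA polymerase I, had 245, 309 and 300.0 CPM with dox in PELO-guide cells at 48 h, against 99.96, 102 and 109.8 CPM without. The 96 h values were 238, 215 and 230.4 CPM with dox and 90.7, 94.7 and 76.9 CPM without. In control cells it stood at 97.3, 101 and 105 CPM with dox and 114, 98.7 and 106 CPM without at 48 h, and 74.6, 77.7 and 71.8 against 76.3, 75.1 and 74.0 CPM at 96 h. The control groups overlapped at both times, and the changes beyond them were 1.53 ± 0.10 and 1.39 ± 0.10 (edgeR adjusted p = 3.38e-15 and 2.29e-14).

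A second set rose less than 2-fold at 48 h but at both times. SNHG29 averaged 1116 ± 72.8 CPM with dox and 733 ± 53.0 CPM without in PELO-guide cells at 48 h, and 1339 ± 134 against 741 ± 41.3 CPM at 96 h, with changes beyond control cells of 0.81 ± 0.08 and 0.79 ± 0.08. SNHG5, host of the SNORD50 pair, changed by 0.70 and 0.79 on the log2 scale. SNHG6, host of SNORD87, changed by 0.59 and 0.79, and SNHG26, host of SNORD93, by 0.64 and 0.88. SNHG11, which carries 2 box H/ACA snoRNAs, changed by 0.55 and 1.14. In these 5 genes, too, every PELO library with dox lay above every PELO library without at both times. Exons of MCMDC2 on the other strand overlap 29.3% of those of SNHG6.

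SNHG19, the host of SNORD60 on chromosome 16 (2154797 to 2155358, - strand, ENSG00000260260.2), went the other way. In PELO-guide cells it had 13.1, 15.8 and 17.0 CPM with dox and 21.2, 21.0 and 26.0 CPM without at 48 h, and 7.71, 7.47 and 6.49 CPM with dox against 22.8, 23.1 and 23.3 CPM without at 96 h. The control values were 26.5, 29.9 and 29.7 CPM with dox and 23.6, 18.6 and 20.8 CPM without at 48 h, and 15.6, 16.7 and 15.1 against 17.6, 19.8 and 18.7 CPM at 96 h. With dox, the PELO libraries were below all others of their time at both times. Relative to control cells, SNHG19 changed by -1.02 ± 0.13 at 48 h and by -1.43 ± 0.13 at 96 h on the log2 scale (edgeR adjusted p = 3.52e-08 and 3.80e-11). The 48 h value was made up of -0.57 in PELO-guide cells and a rise of 0.45 in control cells. It has a C followed by pyrimidines at the annotated start, as do ZFAS1, SNHG32, TAF1D, SNHG12 and SNHG5, which rose.

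The 4 other genes that fell beyond control cells at both times changed less. SNHG10, host of SCARNA13, averaged 4.21 ± 0.289 CPM with dox and 7.33 ± 0.190 CPM without in PELO-guide cells at 96 h, with changes of -0.68 and -0.82. SNHG3, host of the SNORA73 pair, averaged 39.9 ± 2.91 CPM with dox and 73.1 ± 1.496 CPM without at 96 h, with changes of -0.35 and -0.69. SNHG14, the long host of the Prader-Willi region snoRNAs, averaged 23.1 ± 2.71 CPM with dox and 39.3 ± 2.80 CPM without at 96 h, with changes of -0.36 and -0.71. In each of these 3, and in DANCR, the PELO libraries with dox lay below those without at both times. DANCR, host of SNORA26 and known for holding epidermal progenitors undifferentiated, changed by -0.29 and -0.28. Exons of GLRX5 on the other strand overlap 20.1% of those of SNHG10, and exons of RCC1 on the same strand 5.92% of those of SNHG3.

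Other members differed between the times. EPB41L4A-AS1, host of SNORA13, averaged 49.8 ± 5.21 CPM with dox and 34.3 ± 2.58 CPM without in PELO-guide cells at 48 h, but 23.4 ± 1.25 CPM with dox and 27.4 ± 0.367 CPM without at 96 h. Beyond control cells it was 1.09 ± 0.10 at 48 h and 0.04 ± 0.10 at 96 h (edgeR adjusted p = 6.05e-12 and 0.767), and the change between the times was -1.05 ± 0.14 (edgeR adjusted p = 5.53e-07). Between the dox libraries alone it was called higher at 96 h, by 0.47 (edgeR adjusted p = 3.95e-07). Exons of EPB41L4A overlap 49.6% of its exons on the other strand. SNHG30, host of SNORD7, averaged 21.4 ± 0.680 CPM with dox and 11.2 ± 0.186 CPM without at 96 h, and its change beyond control cells was -0.01 ± 0.09 at 48 h and 0.90 ± 0.09 at 96 h. SNHG9, host of SNORA78, was scarce, at 1.23 ± 0.257 CPM with dox and 0.522 ± 0.123 CPM without at 96 h, and changed by -0.11 ± 0.36 and 1.85 ± 0.39. SNHG4, host of the SNORA74 pair, changed by -0.14 at 48 h, short of the threshold, and by -0.75 at 96 h. In all, 7 members had a larger and 6 a smaller log2 change at 96 h than at 48 h, where 10.5% and 9.98% of all genes did. The libraries of the 2 times carry separate blocks of numbers, so time and library batch cannot be told apart.

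SNHG21, host of SCARNA15, and SNHG28 passed the threshold as lower at 48 h and not at 96 h. SNHG28 averaged 0.132 ± 0.0491 CPM with dox and 0.193 ± 0.0505 CPM without in PELO-guide cells, with at most 23 counts in any library; its change of -1.31 ± 0.46 (edgeR adjusted p = 0.0239) was not called without the third PELO library with dox (0.0852), the third without (0.116), the third control library with dox (0.0617), or the first (0.0567) or the third (0.0846) control library without. SNHG21 changed by -0.54 ± 0.20 (edgeR adjusted p = 0.0232) and was not called without the third PELO library without dox (0.107), the first PELO library with dox (0.0713) or the first control library with dox (0.0700). Exons of other genes overlap all of SNHG28 and 72.9% of SNHG21 on the same strand. SNHG16, host of the SNORD1 group and overlapped over 30.6% of its exons on the other strand, changed by 0.15 at 48 h, short of the threshold, and by -0.27 at 96 h. SNHG20, SNHG22, SNHG25 and SNHG31 did not pass the threshold at either time. SNHG25 was called lower at 48 h by edgeR without the third PELO library with dox (adjusted p = 0.0392), the first (0.0318) or the second (0.0389) control library with dox, or the first without (0.0233). SNHG31 was called higher at 96 h without the first PELO library with dox (0.0327), and SNHG22 and SNHG31 stayed at or below 0.959 CPM in every group mean.

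In HBS1L-guide cells the host genes hardly moved beyond control cells at 48 h and rose in part at 96 h. At 48 h, SNHG8 and SNHG17 were higher and 0 of 31 lower (1.41% and 2.44% of all genes), with 0 lower also at an unadjusted p under 0.05 and by DESeq2. SNHG8 changed by 0.35 ± 0.10 (edgeR adjusted p = 0.0303) and SNHG17 by 0.33 ± 0.10 (0.0446). Neither rose within HBS1L-guide cells at 48 h: SNHG8 was called lower with dox there, and the SNHG17 groups overlapped. In control cells at 48 h the dox libraries of both genes lay below those without. Both calls beyond control cells were lost on leaving out the first or the second HBS1L library with dox, the first or the second without, the first control library with dox, or the first or the second control library without: the count was then 0. SNHG17 alone was lost without the third control library with dox or the third HBS1L library without dox (ZFAS1 was then called, at 0.37), and SNHG8 alone without the second control library with dox. At 96 h, 12 were higher and 1 lower, where 5.41% of all genes were higher and 5.32% lower, and the members' median log2 change was 0.35 against 0.01 over all genes.

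ZFAS1 and SNHG32 led in HBS1L-guide cells at 96 h. ZFAS1 had 99.6, 99.4 and 98.3 CPM with dox, against 44.3, 40.5 and 42.5 CPM without, and at 48 h 65.2, 62.5 and 57.7 CPM with dox against 59.5, 61.7 and 72.9 CPM without. SNHG32 had 137, 149.7 and 147 CPM with dox and 73.0, 67.2 and 70.5 CPM without at 96 h, and 101, 104 and 92.2 against 107, 107 and 115 CPM at 48 h. At 96 h the groups were wide apart for both genes; at 48 h the ZFAS1 groups overlapped, and the SNHG32 libraries with dox lay just below those without. Beyond control cells at 96 h, ZFAS1 changed by 1.16 ± 0.09 (edgeR adjusted p = 2.28e-11) and SNHG32 by 1.12 ± 0.09 (1.08e-11).

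GAS5 had 261, 268 and 246 CPM with dox in HBS1L-guide cells at 96 h, against 163, 139 and 153 CPM without, and 272, 277 and 256 against 290.2, 293 and 295 CPM at 48 h. Its change beyond control cells at 96 h was 0.84 ± 0.09 (edgeR adjusted p = 1.79e-08). SNHG8 changed by 0.70, EPB41L4A-AS1 by 0.66, SNHG29 by 0.58, SNHG5 by 0.57, TAF1D by 0.50, SNHG6 by 0.49 and SNHG7 by 0.47. These rises were smaller than those of ZFAS1, SNHG32 and GAS5. SNHG1 had 55.4, 59.3 and 59.0 CPM with dox and 55.1, 48.02 and 50.6 CPM without at 96 h, and 82.0, 85.4 and 82.6 against 92.6, 95.3 and 86.7 CPM at 48 h. SNHG17 had 18.5, 21.1 and 20.1 CPM with dox and 19.1, 17.0 and 16.8 CPM without at 96 h, and 26.6, 28.2 and 24.7 against 25.6, 26.1 and 25.5 CPM at 48 h. The SNHG17 groups overlapped at both times.

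The calls of SNHG1 (0.28 ± 0.08, edgeR adjusted p = 0.0222) and SNHG15 (0.33 ± 0.10, 0.0294) in HBS1L-guide cells at 96 h were each lost on leaving out any 1 of 5 libraries. For SNHG1 these were the second HBS1L library with dox (adjusted p = 0.0606), the second without (0.0897), the third control library with dox (0.0706) and the first (0.0688) or second (0.0622) control library without. For SNHG15 they were the second HBS1L library with dox (0.0918), the second (0.0905) or the third (0.0672) without, the third control library with dox (0.0991) and the first without (0.112). SNHG10, the 1 member that fell (-0.36 ± 0.11, edgeR adjusted p = 0.0264), was lost without the first (0.0505) or the third (0.0972) HBS1L library with dox, the first without (0.0896), the first (0.0519) or the third (0.0519) control library with dox, or the first without (0.0645). SNHG12, with 9.69, 11.3 and 12.1 CPM with dox and 13.3, 10.2 and 10.2 CPM without, changed by 0.52 ± 0.23 and did not pass the threshold (0.172). SNHG19 lay at 18.1 ± 0.293 CPM with dox and 16.7 ± 1.47 CPM without, with 0.35 ± 0.13 (0.0742; 0.0382 without the first HBS1L library without dox).

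**Figure D3:**
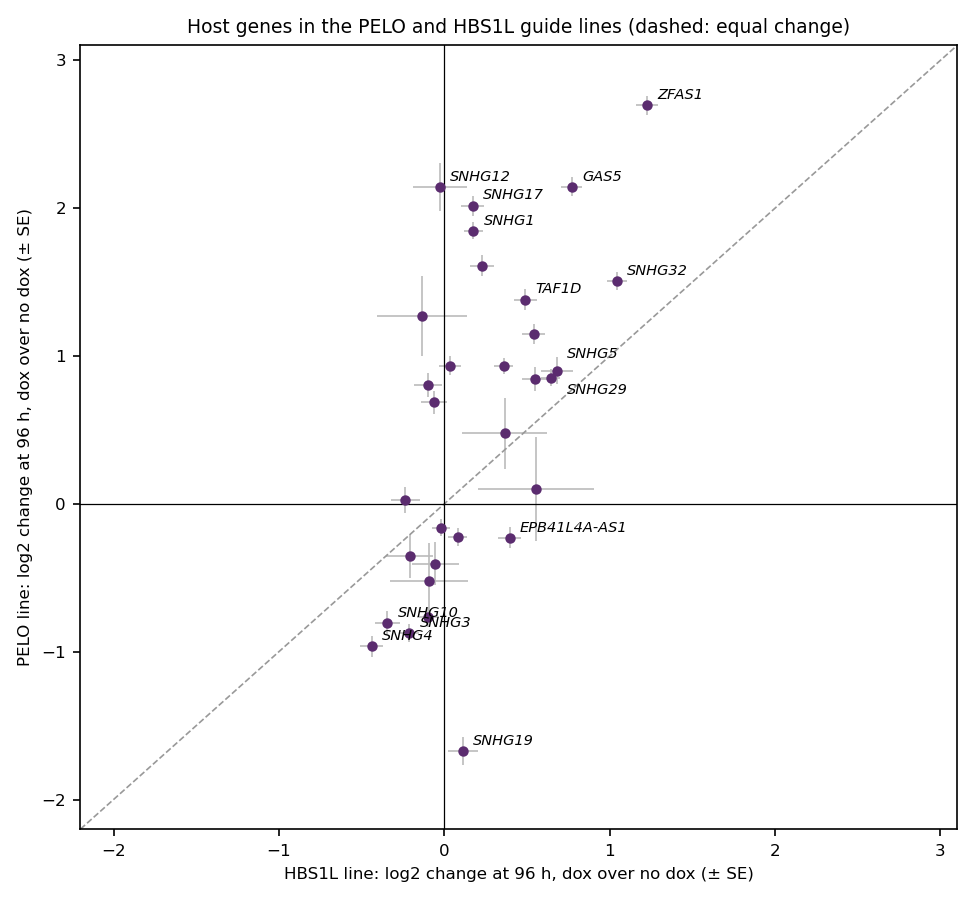
Log2 change with dox over no dox at 96 h in PELO-guide cells (y axis) against HBS1L-guide cells (x axis), both ± SE, for the 31 host genes; the dashed line marks equal change. ZFAS1 lies at 2.70 and 1.22, SNHG32 at 1.51 and 1.04, and SNHG12, SNHG17 and SNHG1, at 2.14, 2.02 and 1.85 in PELO-guide cells, lie at -0.03, 0.17 and 0.18 in HBS1L-guide cells.

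PELO-guide and HBS1L-guide cells, which share no library, were set against each other within a time. At 96 h, 17 members rose with dox in PELO-guide cells and 12 in HBS1L-guide cells, where 34.4% and 11.0% of all genes did; 10 and 3 fell, where 32.5% and 8.90% of all genes did. The 11 that rose in both were 64.7% of the PELO set and 91.7% of the HBS1L set: GAS5, SNHG1, SNHG15, SNHG29, SNHG32, SNHG5, SNHG6, SNHG7, SNHG8, TAF1D and ZFAS1. For all genes, the share that rose in both lines is not given here. SNHG10, SNHG3 and SNHG4 fell in both, and EPB41L4A-AS1 rose in HBS1L-guide cells and fell in PELO-guide cells. At 48 h no member rose in both, because 0 rose in HBS1L-guide cells (6 at an unadjusted p under 0.05 and 1 by DESeq2). The PELO response minus the HBS1L response was past the threshold for 20 members at 48 h (43.2% of all genes), 16 higher and 4 lower (21.9% and 21.3%), and for 23 at 96 h (55.5% of all genes), 16 higher and 7 lower (29.1% and 26.4%).

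By this test of the difference the SNHG12 response was 2.17 ± 0.23 larger in PELO-guide cells at 96 h, that of SNHG17 1.84 ± 0.10, SNHG1 1.67 ± 0.08, ZFAS1 1.47 ± 0.09 and GAS5 1.38 ± 0.09. SNHG32, at 0.46 ± 0.08, and SNHG29, at 0.21 ± 0.08, differed less. SNHG5 differed by 0.22 ± 0.13 (edgeR adjusted p = 0.163), which did not pass the threshold. SNHG19 differed by -1.78 ± 0.13 and EPB41L4A-AS1 by -0.62 ± 0.10. At 48 h the difference for ZFAS1 was 1.86 ± 0.09, for SNHG1 1.58 ± 0.08, for SNHG17 1.57 ± 0.09, for TAF1D 1.53 ± 0.10 and for SNHG32 1.43 ± 0.08.

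Dox changed host genes in control cells too, mostly downwards at 48 h. There 4 members were higher and 11 lower with dox, where 19.0% and 16.0% of all genes were. SNHG7 (-0.62), SNHG8 (-0.62), SNHG20 (-0.58), EPB41L4A-AS1 (-0.56), SNHG32 (-0.36) and ZFAS1 (-0.34) fell in log2 terms, and SNHG19 (0.45), SNHG30 (0.32), SNHG25 (0.32) and SNHG28 (0.77) rose. Without the third control library with dox, or the third without, 2 were higher. At 96 h control cells had 0 higher (also 0 at an unadjusted p under 0.05 and 0 by DESeq2) and 3 lower, SNHG11, SNHG12 and EPB41L4A-AS1, where 3.89% and 3.63% of all genes were. The 3 lower calls fell to 0 without the third control library with dox or the second without, and to 1 without the first with dox or the first without; 1 was higher without the third library without dox. In HBS1L-guide cells at 48 h, 7 members fell (11.4% of all genes did, and 10.1% rose), led by SNHG20 (-0.44) and SNHG7 (-0.39); without the third library with dox or the third without, 4 fell and 2 rose. With dox against no dox in PELO-guide cells, 17 rose and 8 fell at 48 h (24.2% and 23.7% of all genes).

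**Figure D4:**
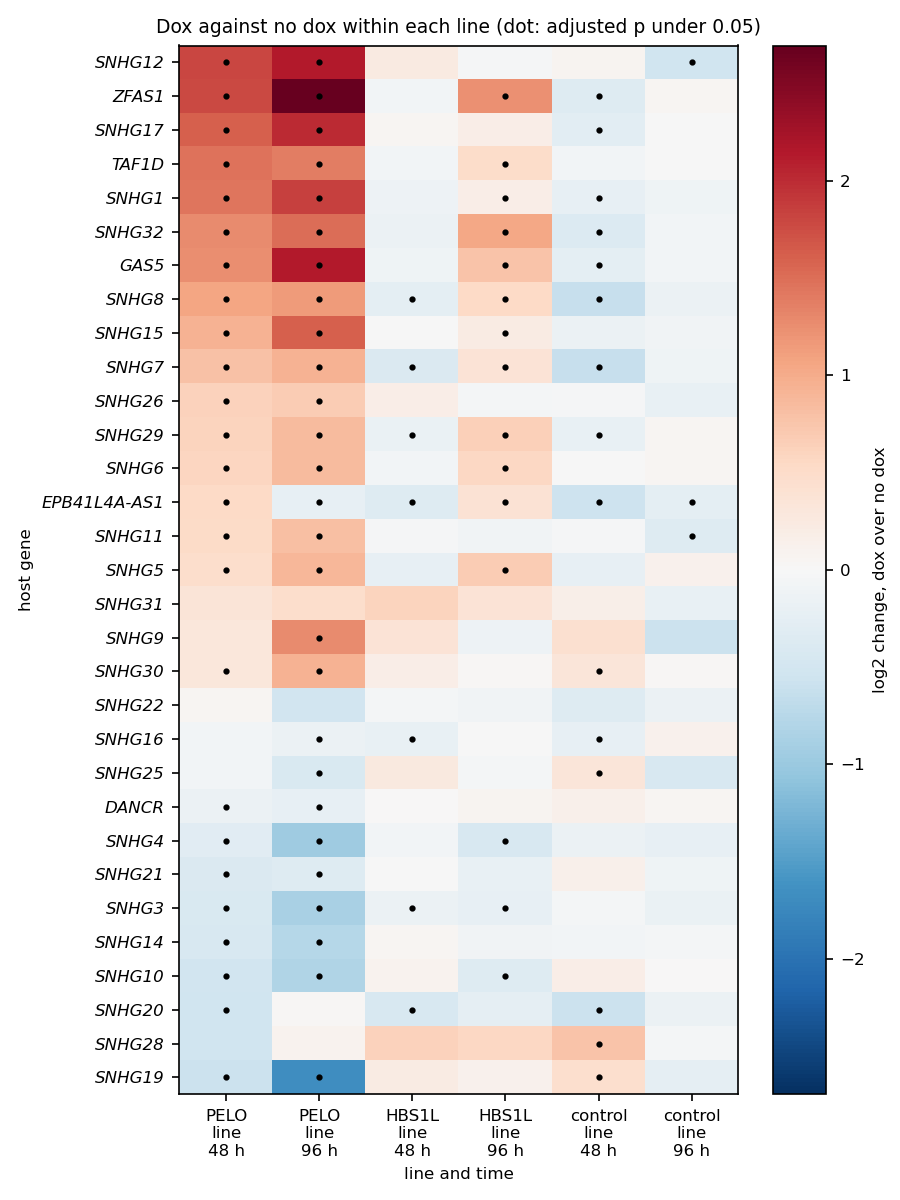
Log2 change with dox over no dox (colour) for 31 host genes (rows) within the PELO, HBS1L and control lines at 48 h and 96 h (columns); dots mark an adjusted p under 0.05. The PELO columns hold 17 rises each, HBS1L-guide cells 12 at 96 h and 0 at 48 h, and control cells 4 at 48 h and 0 at 96 h.

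Set by libraries rather than by a model, the picture in PELO-guide cells was alike. At 48 h all dox libraries lay above all no-dox libraries in 16 members and below in 8, where 25.7% and 26.5% of all genes were so separated. By 96 h it was 17 above and 11 below (34.8% and 32.6%), and 3 members overlapped. In HBS1L-guide cells 4 were above and 11 below at 48 h (20.4% and 19.3%), and 14 above and 2 below at 96 h (19.2% and 17.3%). Cells with the control guide had 4 above and 14 below at 48 h (25.2% and 21.1%), and 0 above and 7 below at 96 h (13.0% and 11.8%). In that line at 96 h, 24 members overlapped.

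Hosts of both main kinds of snoRNA were among those that rose and those that fell. Of 12 tested hosts with box C/D snoRNAs only, 7 rose and 2 fell in PELO-guide cells beyond control cells at 48 h, and 8 rose and 3 fell at 96 h. Of 11 with box H/ACA snoRNAs only, 6 rose and 2 fell at 48 h, and 6 rose and 3 fell at 96 h. All 3 hosts with both kinds (GAS5, SNHG12 and TAF1D) rose at both times. Of the 4 scaRNA hosts (SNHG10, SNHG20, SNHG21 and SNHG22), 2 fell at 48 h and 1 at 96 h, and the others did not pass the threshold (medians -0.25 and -0.31). Over all genes 22.9% rose and 24.9% fell in this comparison at 48 h, and 28.7% rose and 26.0% fell at 96 h, so the shares of box C/D and box H/ACA hosts that fell lay near or below that of all genes. These classes were read from RefSeq and their difference was not tested.

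The table also lists snoRNA genes that lie within the hosts, which polyadenylated libraries capture poorly. Of these 152 rows, 84 lie in SNHG14, which also holds most of the rows that lie in introns only, and 0 lie in GAS5. The counts below are therefore no even survey of the hosts. Of 95 snoRNA rows that lie in introns only, 13 had enough counts to be tested and 0 were called by edgeR beyond control cells in either line at either time; at an unadjusted p under 0.05 it was 1 in PELO-guide cells at 48 h and 1 in HBS1L-guide cells at 96 h, and by DESeq2 0 in each. Their SEs ran from 0.201 to 0.742 on the log2 scale, so a change of 2-fold could go undetected in several of them. Of 57 rows that overlap an exon of the host, 41 were tested; 1 was higher and 2 lower in PELO-guide cells beyond control cells at 48 h, and 7 higher and 4 lower at 96 h, against 22.9% and 24.9% of all genes at 48 h and 28.7% and 26.0% at 96 h. Among the 4 lower ones, SNORA50C and ENSG00000281311 are rows of the same place in SNHG25. The others were SNORA40 in TAF1D (-0.93) and SNORD65 in SNHG29 (-0.56), although both hosts rose. The 2 lower rows at 48 h, SNORD26 in SNHG1 (-0.65) and SNORA9 in SNHG15 (-0.72), also lay in hosts that rose. In HBS1L-guide cells beyond control cells, 1 such row was higher at 96 h (SNORD49B in SNHG29, 0.71; 5.41% of all genes were higher). Rows that overlap an exon did not all follow their host, and the source of their reads, host RNA or snoRNA, was not tested. Mature snoRNA levels were therefore not measured here.

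Several hosts share a start region with a neighbour read in the other direction, and these pairs differed. The neighbours were chosen after the host gene values were seen: any tested gene on the other strand with its start within 1000 bases, which gave 11 neighbours of 10 hosts. Starts here were the outermost gene ends in GENCODE 29, not the RefSeq starts shown above. SNHG1 and SLC3A2, the heavy chain of amino acid transporters whose start lies 188 bases away, changed by like amounts in PELO-guide cells beyond control cells, 1.67 ± 0.08 and 1.76 ± 0.07 at 48 h, and 1.95 ± 0.08 and 1.85 ± 0.07 at 96 h. ZFAS1 changed by 2.13 at 48 h and its neighbour ZNFX1 by 0.37 ± 0.11 (edgeR adjusted p = 0.00613). GAS5 changed by 1.52 and its neighbour ZBTB37 by 0.14 ± 0.15 (0.473). TAF1D changed by 1.53 and MED17, a Mediator subunit, by 0.48 ± 0.08. This pair rests on the GENCODE end of TAF1D at 93784391, far from its RefSeq start window (93741456 to 93741525). By the RefSeq start the 2 genes would not count as neighbours. SNHG19 changed by -1.02 and TRAF7 by -0.12 ± 0.06 (0.0914), and at 96 h SNHG19 by -1.43 and TRAF7 by -0.48 ± 0.06. SNHG9 changed by 1.85 at 96 h and the ribosomal protein gene RPS2 by 0.08 ± 0.09. Over the 11 neighbours, 4 rose and 3 fell at 48 h, and 5 rose and 3 fell at 96 h. Over all genes 22.9% rose and 24.9% fell at 48 h, and 28.7% and 26.0% at 96 h, so the share of neighbours that fell was near that of all genes.

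**Figure D5:**
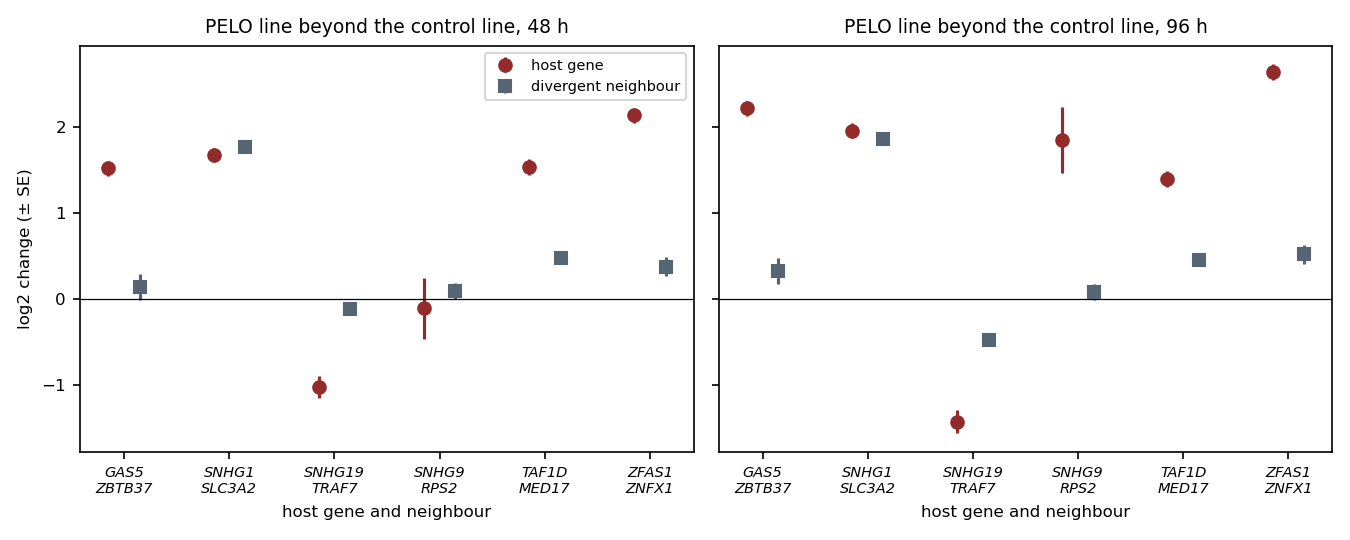
Log2 change of PELO-guide cells beyond control cells (y axis, ± SE) for 6 host genes (circles) and the gene read in the other direction from the same start region (squares), at 48 h (left) and 96 h (right). Start regions are by GENCODE gene ends, which for TAF1D lie far from its RefSeq start. These are 6 of the 10 hosts with a tested neighbour, not picked by a rule. SNHG1 and SLC3A2 lie together, at 1.67 and 1.76 at 48 h, while ZNFX1 lies at 0.37 beside ZFAS1 at 2.13.

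Of the 250 bases before and 50 bases after each annotated start, no host promoter held the C/EBP-ATF composite element TGATGNAA on either strand, against 3.62% of all promoters. None held the cyclic AMP element TGACGTCA, against 1.85%. The E-box CACGTG was found in SNHG30 and SNHG7 (6.90% of 29, against 7.26% of all). CACGTG and TGACGTCA share the letters ACGT, and a missing match says only that these letters are absent from this window. Of the 14 members with a promoter entry that rose in PELO-guide cells beyond control cells at 48 h, 5 had a C followed by at least 4 pyrimidines at the annotated start, as did 1 of the 7 that fell and 1 of 6 that did not pass the threshold. At 96 h it was 5 of 14, 2 of 7 and 0 of 6.

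Genes of the same pathways were followed with lists chosen with earlier results of these data known. NMD factors, which remove the spliced host RNAs, had 9 of 15 higher in PELO-guide cells beyond control cells at 48 h and 12 at 96 h, with the other 6 and 3 short of the threshold (medians 0.33 and 0.38), where 22.9% and 28.7% of all genes were higher. SMG5, which recruits the decay machinery to UPF1, averaged 141 ± 8.50 CPM with dox and 83.5 ± 1.85 CPM without in PELO-guide cells at 48 h, with 69.6 ± 1.57 and 97.7 ± 4.15 CPM in control cells, a change of 1.24 ± 0.09 (edgeR adjusted p = 1.64e-14). SMG9, of the UPF1 kinase complex, changed by 1.15 ± 0.13 and UPF3A by 0.66 ± 0.10. Several of these factor genes are themselves known NMD targets. Of 11 protein-coding NMD substrates, 8 were higher at 48 h and 10 at 96 h, with the other 3 and 1 short of the threshold (medians 0.52 and 0.74; the same shares of all genes apply). GADD45A, a stress gene, changed by 4.72 ± 0.10 at 48 h, ATF4, the integrated stress response factor, by 1.89 ± 0.09 and GADD45B by 1.56 ± 0.08. The GADD45A value was made up of 3.18 in PELO-guide cells and -1.54 in control cells. In HBS1L-guide cells beyond control cells at 96 h, 1 NMD factor was higher (UPF3A, 0.42) and 1 lower (EIF4A3, -0.25), and of the substrates 2 were higher and 4 lower, the last all splicing factor genes of the SRSF family, where 5.41% of all genes were higher and 5.32% lower.

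Proteins that bind snoRNAs were also followed. Of the 8 core proteins, 4 were higher and 2 lower in PELO-guide cells beyond control cells at 48 h, and 5 higher and 1 lower at 96 h (medians 0.24 and 0.63). Over all genes 22.9% were higher and 24.9% lower at 48 h, and 28.7% and 26.0% at 96 h, so the share of core proteins that was lower at 48 h lay near that of all genes. The box C/D protein NOP58 averaged 325 ± 25.6 CPM with dox and 114 ± 2.57 CPM without in PELO-guide cells at 96 h, with 149.8 ± 9.55 and 161 ± 8.31 CPM in control cells, a change of 1.61 ± 0.09 (edgeR adjusted p = 4.50e-18). The pseudouridine synthase DKC1 changed by 0.60 at 48 h and 0.98 at 96 h, and NOP56 by 0.50 and 1.05. The lower ones were NHP2 (-0.41) and FBL, the box C/D methyltransferase (-0.25), at 48 h. Of 9 assembly factors, 3 were higher and 1 lower at 48 h, and 5 higher and 2 lower at 96 h (medians 0.04 and 0.16; at 48 h 33.3% and 11.1% of the list), with ZNHIT6 at 1.04 ± 0.06, NUFIP1 at 0.53 ± 0.06 and SHQ1 at -0.30 ± 0.07 at 48 h. Of 39 protein-coding genes that also carry intronic snoRNAs, 15 were higher and 2 lower at 48 h, and 18 higher and 7 lower at 96 h (medians 0.08 and 0.15), led by HSPA9, a mitochondrial chaperone (0.95 ± 0.05), WDR43, a ribosome biogenesis factor (0.96 ± 0.05), and EIF4G2 (0.72 ± 0.06) at 48 h. NOP56, counted above as a core protein, is also among these 39, so the lists overlap. In HBS1L-guide cells at 96 h, 15 of these 39 were higher and 3 lower (median 0.19), where 5.41% and 5.32% of all genes were.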

How the data were processed

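Per the labels, polyadenylated RNA of MIA PaCa-2 lines was sequenced after NEB Ultra II library preparation. Per the submitters' processing notes, the tools were limma, edgeR, featureCounts, Subread and DRAGEN, on GRCh38.p13; no source used here gives their settings or annotation. The authors deposited expected counts per gene, that is, fractional counts (45.6% of the values above 0 are not whole), and a log2 CPM table of 17138 genes that equals the log2 of the counts with a small offset, up to a constant per library. All tests started from the count table.

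After rounding to integers, edgeR 4.0.16 (R 4.3.3) was run on the 20767 of 61544 genes that passed filterByExpr (min.count 10, min.total.count 15). These hold 99.9% or more of each library. Library sizes were scaled by TMM, and 1 mean per group was fitted to all 36 libraries with robust quasi-likelihood dispersion. Comparisons were contrasts of group means, called at an adjusted p under 0.05. The script was tested on simulated data. DESeq2 1.42.0, limma 3.58.1, other scalings, filters and subsets of libraries were alternatives. Symbols were matched for 61445 rows. Coordinates, exonic lengths, neighbours and the snoRNA rows within hosts came from GENCODE 29, and the snoRNAs named for each host and promoters from RefSeq. Same-numbered libraries showed little shared deviation over all genes tested (6 of 90 pairs correlated above 0.1), and samples were not paired by number. Noise in genes with low counts lowers such correlations, so pairing is not excluded.

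The host genes and all gene lists were chosen with earlier results of these data known. Values of every library are given for ZFAS1, GAS5, SNHG1, SNHG17 and SNHG32 and for members called in PELO-guide cells beyond control cells at both times with a log2 change of at least 1 in size, group values or changes for the rest, and from each list the 3 genes with the smallest adjusted p in PELO-guide cells. Further genes were named after their values were seen: those behind small counts and the neighbours of host genes.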

Additional observations from a re-analysis of the deposited data

Results flagged for a closer look

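The change between 96 h and 48 h of the PELO response beyond control cells passed an adjusted p of 0.05 (edgeR's quasi-likelihood test with Benjamini-Hochberg adjustment) in 13 of 31 host genes. The log2 change was larger at 96 h for SNHG9 (1.96), SNHG12 (0.95), SNHG30 (0.91), GAS5 (0.70), SNHG15 (0.63), SNHG11 (0.59) and ZFAS1 (0.50). It was smaller, or further below 0, at 96 h for EPB41L4A-AS1 (-1.05), SNHG4 (-0.61), SNHG16 (-0.42), SNHG7 (-0.37), SNHG8 (-0.37) and SNHG3 (-0.34). SNHG8 changed with dox by -0.62 in control cells at 48 h and by -0.16 at 96 h, and SNHG7 by -0.62 and -0.11; the part of this in the difference was not tested.

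The PELO and HBS1L responses differed by a test of the difference itself in 20 members at 48 h and in 23 at 96 h. EPB41L4A-AS1 passed in opposite directions at 48 h and 96 h, at 0.89 and -0.62.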

How the results depend on the processing

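In PELO-guide cells beyond control cells, leaving out 1 library at a time gave 16 higher throughout at 48 h (5 to 8 lower) and 17 to 18 at 96 h (7 lower throughout), and no called member reversed in that comparison. Under the other settings 16 to 17 were higher and 5 to 9 lower at 48 h, and 17 to 19 higher and 6 to 7 lower at 96 h. With dox libraries alone EPB41L4A-AS1 (0.47) and SNHG31 (0.62) were called higher at 96 h, SNHG16 was called higher at 48 h (0.29) and not called at 96 h (-0.11), and SNHG4 was called lower at 48 h (-0.39). SNHG16 was also called at 48 h with the 18 libraries of that time (0.19). At 48 h SNHG21 was not called by DESeq2 (adjusted p = 0.0688) or with no filter on low counts (0.0565), and SNHG28 not by DESeq2 (0.0752), with no filter (0.0957) or with the 18 libraries (0.0521). SNHG25 was called lower at 48 h with dox libraries alone (-0.34), by limma (-0.42), with no filter (-0.44) and with total counts (-0.46). In HBS1L-guide cells beyond control cells at 48 h, 2 members were higher; it was 19 with dox libraries alone (1 lower in place of 0), 1 with the 18 libraries of that time, 1 with a replicate block (SNHG17 lost, adjusted p = 0.0533) and 4 with total counts. With dox libraries alone the signs of DANCR (0.24), SNHG10 (0.31), SNHG14 (-0.22), SNHG3 (0.24), SNHG30 (0.20) and SNHG6 (0.30) reversed there, since that contrast keeps differences between the lines without dox. At 96 h the 1 lower member was 0 with no filter on low counts. SNHG19 was called higher at 96 h by DESeq2 (0.35), with no filter (0.36) and with the 18 libraries of that time (0.34). With those 18 libraries SNHG1 (edgeR adjusted p = 0.0570) and SNHG15 (0.0883) were not called. Dox libraries alone gave SNHG11 (0.29), SNHG12 (0.54) and SNHG17 (0.26) as higher at 96 h. In HBS1L-guide cells alone at 48 h, 0 higher became 1 by DESeq2, 2 by limma, 2 with no filter, 2 with the libraries of that time and 3 with total counts. In control cells, 4 higher at 48 h became 2 with the libraries of that time, and 3 lower at 96 h became 6 by DESeq2, 6 with no filter and 8 with total counts. With total counts the PELO response minus the HBS1L response at 48 h had 9 lower in place of 4. Leaving out 1 library gave 2 to 6 higher in control cells at 48 h, 0 to 1 higher and 0 to 4 lower there at 96 h, 0 to 2 higher and 4 to 5 lower in HBS1L-guide cells at 48 h, and beyond control cells 0 to 2 higher at 48 h and 0 to 1 lower at 96 h in that line. The cause of these moves was not tested. The replicate block changed no other call of a member beyond control cells.

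Total counts in place of TMM moved the share of higher among called genes to 57.6% in place of 36.5% in HBS1L-guide cells beyond control cells at 48 h, 60.8% in place of 50.4% at 96 h, 64.3% in place of 47.0% and 43.3% in place of 55.2% in that line at 48 h and 96 h, 37.4% in place of 50.7% for PELO minus HBS1L at 48 h, and 21.5% in place of 51.8% in control cells at 96 h. For PELO minus HBS1L at 48 h it moved the median of all genes to -0.12 in place of -0.02. Low counts limit SNHG9, SNHG21, SNHG22, SNHG28 and SNHG31, and intervals and p-values cover these libraries only.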
